A study of Gallus gallus with 4 samples.

Results

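The Z chromosome is the larger sex chromosome of birds, and its transcripts were followed here in the cranial headfolds of chick embryos exposed to alcohol or to saline. All exon parts that the deposited count table places on Z were taken, without regard to their values, and were summed per gene identifier. This gave 10757 of 220717 exon parts and 1219 of 24513 genes. Of the Z genes, 959 had a count in some lane and 748 had at least 10 counts over all lanes and were tested, among 18093 genes tested in the whole table. The remaining Z genes were too low to test.

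The alcohol group holds 2 sequencing lanes and the saline group holds 2. All embryos were Gallus gallus of the strain Special black, incubated for 27 hr and collected as headfolds at Hamburger-Hamilton stages 8 to 9, and the sources give pools of 23 headfolds. Alcohol embryos received 0.43 mmol ethanol, which the study's methods give as 52 mM for 90 min, and saline embryos received isotonic saline. Tissue was collected 6 hr after the exposure began. The labels place the alcohol lanes and the saline lanes in different sequencing runs, so that treatment and run cannot be told apart.

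Male birds carry a pair of Z chromosomes, whereas females carry a single Z and a W chromosome. Birds do not silence a whole Z chromosome in the way mammals silence an X, and many Z genes are known to be more abundant in males. Dosage compensation on Z works gene by gene. The labels do not give the sex of the pooled embryos, so that the make-up of the pools by sex and the treatment cannot be told apart. In pooled tissue, fewer cells of a type and less RNA per cell cannot be told apart either.

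The lanes held 15388474 to 20951322 counts. Mitochondrial genes took 33.3% and 32.9% of the counts in the alcohol lanes, against 44.2% in both saline lanes, and shares are therefore given over nuclear counts. The saline lanes agreed within sampling noise (chi-square over degrees of freedom 1.04 over genes) and were counted as 1 sample. The alcohol lanes differed more (5.68) and were kept as 2. The labels do not say whether lanes are separate pools, although the study's table legends speak of pooled samples in each group. P-values measure only the spread between these lanes, which may be technical. Of the Z genes, ZNF462 alone is paired with a symbol in the sources used here, and genes are described by their position in the Galgal5 assembly. The marker genes of headfold tissue fixed for a check of the label were not paired with identifiers there either, and that check was not made.

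Z transcripts took a larger share of nuclear counts after alcohol. The share was 2.92% and 2.76% in the alcohol lanes, against 2.52% and 2.51% in the saline lanes. The W chromosome moved the other way, with 0.0334% and 0.0314% of nuclear counts in the alcohol lanes and 0.0398% and 0.0394% in the saline lanes. Neither chromosome showed an overlap between the groups. The lane shares of other single chromosomes were not taken, and whether the groups separate there too was not tested. The part that the sex of the embryos has in these shares was not tested.

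**Figure D1:**
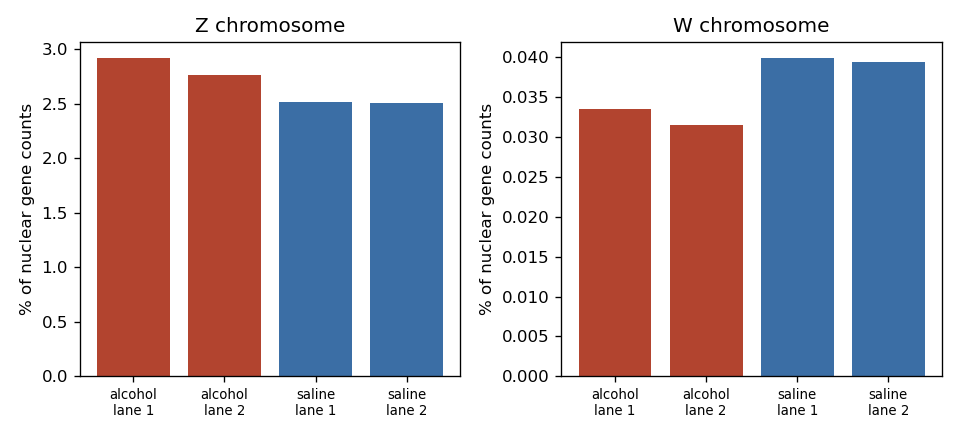
Share of nuclear gene counts (%) taken by the Z chromosome (left) and the W chromosome (right), with 1 bar for each lane and no error bars. The Z share is 2.92% and 2.76% in alcohol and 2.52% and 2.51% in saline, and the W share is lower in both alcohol lanes.

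Among the 748 Z genes tested, 189 rose and 31 fell after alcohol at a false discovery rate of 0.1 (edgeR quasi-likelihood test, Benjamini-Hochberg over all genes). Over all genes of the table, 15.5% were called higher and 11.6% lower, and among the Z genes the shares were 25.3% and 4.14%. Autosomal genes had 17.4% higher and 9.16% lower of 14119 tested. The median log2 change was 0.20 over Z genes and 0.04 over autosomal genes, a difference of 0.16. At an unadjusted p under 0.05, 222 Z genes were higher and 43 lower. The calls depend on scale and tool: scaling by library size alone moved the median of all genes by 0.35 and gave 398 higher and 12 lower Z genes, and the Wald test of DESeq2 gave 63 and 6. Under library size scaling 53.2% of Z genes and 44.5% of autosomal genes were called higher. With DESeq2 these shares were 8.42% and 6.32%. The count of genes called lower was 81 without alcohol lane 1 and 67 without alcohol lane 2, in fits that take each lane as a library. The difference between the Z and the autosomal median lay between 0.12 and 0.17 under all 12 alternative fits. A change of scale shifts all genes nearly alike and cancels in this difference, so that those fits could hardly move it. Both ends of the range came from fits without 1 alcohol lane.

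The difference was present in both alcohol lanes. Set against the saline library, the Z median exceeded the autosomal median by 0.17 in alcohol lane 1 and by 0.12 in alcohol lane 2. Between the lanes of 1 group the same quantity was 0.06 for alcohol lane 1 over lane 2 and -0.003 for saline lane 1 over lane 2, over genes with at least 50 counts in the pair. In the 4 pairings of an alcohol lane with a saline lane, computed in that way, it ranged from 0.11 to 0.19.

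Of the 31 chromosomes with at least 40 tested genes, Z had the highest median change, followed by chromosome 2 (0.15) and chromosome 4 (0.13). With alcohol lane 2 alone against saline the Z median was 0.16, and the ranking was not made for single lanes. Z also had the largest share of genes called higher and the smallest share called lower. Medians were lowest for chromosome 25 (-0.31), chromosome 16 (-0.33) and the W chromosome (-0.35). Chromosomes 1 to 5, the largest autosomes, had a joint median of 0.11 and 19.7% of genes called higher, so that the Z median exceeded theirs by 0.09. On W, 1 gene rose and 14 fell of 82 tested. Of its 13 genes with a log2 CPM of at least 2 (CPM is the count of a gene scaled to a common library total), 6 fell and none was called higher.

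**Figure D2:**
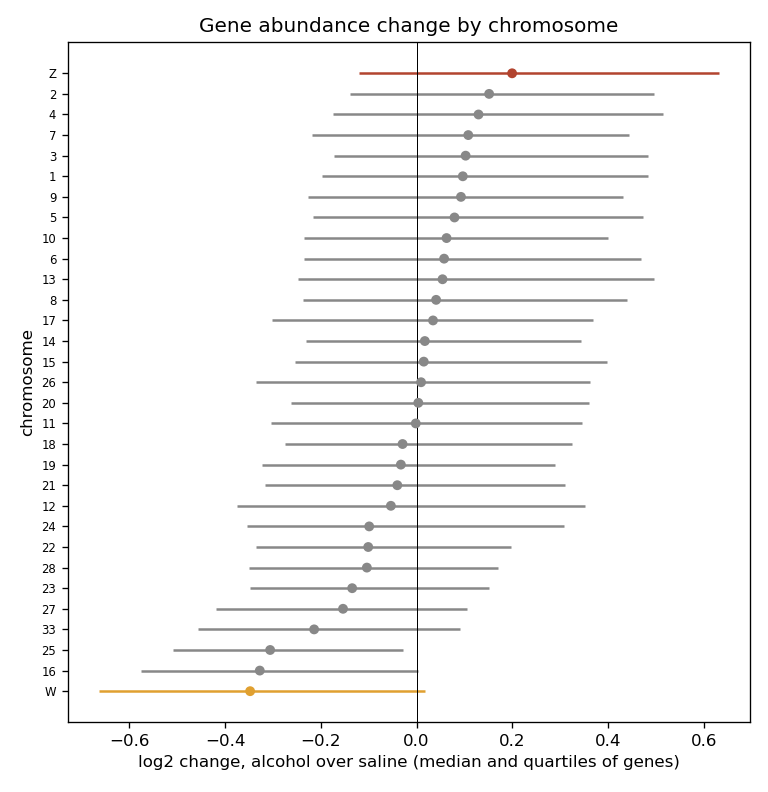
Log2 change of gene abundance, alcohol over saline, for each chromosome with at least 40 tested genes; points are medians over genes and lines run between the quartiles. Z (red) has the highest median, 0.20, and W (orange) the lowest, -0.35.

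The change of a gene went with its level on Z as on the autosomes, and genes were therefore compared within 9 strata of log2 CPM. The Z median exceeded the autosomal median in 9 of the 9 strata. The difference was 0.29 among genes between 1 and 2, where the Z median was 0.52 (n = 90) and the autosomal median 0.22 (n = 1225). In the stratum between 0 and 1 the medians were close, at 0.22 on Z and 0.20 on the autosomes. Genes between 2 and 3 had a Z median of 0.42 and an autosomal median of 0.21. Above 6 the medians were -0.008 for 70 Z genes and -0.07 for 2100 autosomal genes. Measured against the autosomal median of its own stratum, a Z gene had a median excess of 0.13, and 61.4% of Z genes lay above it.

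**Figure D3:**
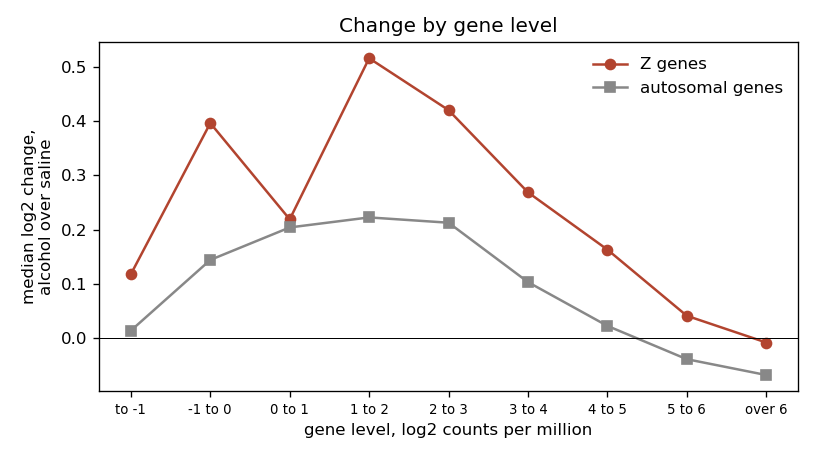
Median log2 change, alcohol over saline, of Z genes (red) and autosomal genes (grey) by gene level in log2 CPM. The Z median lies above the autosomal one in every stratum, by as much as 0.29 between 1 and 2 and as little as 0.015 between 0 and 1.

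Sorted by the length of the gene on the chromosome, the picture was less even. The Z median was above the autosomal one in 4 of 6 strata. Against the autosomal median of its own length stratum, a Z gene had a median excess of 0.11, and 59.2% of Z genes lay above it. Genes of 1 to 5 kb had a Z median of 0.06 and an autosomal median of -0.14. Genes over 100 kb had 0.30 on Z (n = 75) and 0.35 on the autosomes (n = 867), and genes up to 1 kb had -0.19 on Z (n = 60) and -0.09 on the autosomes. The 60 short Z genes include the array described further on.

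Z genes were less abundant than autosomal genes in all libraries. The median level per kilobase of exon parts, in scaled to a fixed total of autosomal counts, was 6.66 and 6.82 for Z in the alcohol lanes, against 10.9 and 11.3 for the autosomes. In the summed saline library it was 5.09 for Z and 9.49 for the autosomes. The ratio of Z to autosomes was thus 0.608 and 0.604 in the alcohol lanes and 0.536 in saline. The lanes of a group differed little, with 0.525 and 0.544 in the saline lanes taken singly. Among the 29 autosomes with at least 40 tested genes, 1 had a lower median level in saline than Z. With 3 libraries no exact permutation test can pass the threshold, and none was run.

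A common minimum level draws the medians of both sets together by construction, and the ratio is given with it as a description. Among genes with a mean level of at least 1, the ratio was 0.714 and 0.696 in the alcohol lanes and 0.675 in saline. The saline lanes taken singly, over a slightly different gene set, gave 0.700 and 0.699, above alcohol lane 2. At a level of at least 5 the ratio was 0.868 and 0.793 in the alcohol lanes and 0.782 in saline. The single saline lanes gave 0.798 and 0.800 there, again above alcohol lane 2. For genes with a level of at least 20 the ratio was 0.924 and 0.849 in the alcohol lanes and 0.806 in saline, over 197 Z genes. It was 0.819 and 0.843 in the saline lanes singly, over 192 Z genes. The 10 Z genes with most counts took 18.3% of all Z counts in saline, and the first 100 took 66.6%.

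None of the 10 Z genes with the highest level per kilobase in saline was called higher. Of these 10, 4 fell and 9 had a negative log2 change. Ranking on the saline level itself favours negative changes. Among genes with a log2 CPM over 6, 11.4% of 70 Z genes were called higher and 7.14% lower. The autosomal shares there were 10.3% and 16.5%. The first of the 10, at 63359022 to 63360866 on the plus strand, had 3782 and 4699 counts in the alcohol lanes, against 5431 and 5419 in the saline lanes. Its log2 change was -0.35 ± 0.14 (SE, edgeR adjusted p = 0.0769). This call and that of the gene at 66519578 (-0.37) were lost with DESeq2 and with library size scaling, and the call at 66519578 also without saline lane 1. Scaling by library size turned 6 of the 10 positive.

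Among Z genes with a mean of at least 100 counts a library, 114 rose and 17 fell, of 418 (27.3% and 4.07%). Over all tested genes of any level the shares were 15.5% and 11.6%. The shares of other chromosomes at this cut were not taken, and calls vary with level. In all 10 of the largest rises both alcohol lanes lay above both saline lanes in CPM. These genes were picked by call and by size of the rise, so that this separation adds no support. The gene ENSGALG00000046283, at 25325395 to 25329467 on the minus strand, had 645 and 714 counts in the alcohol lanes and 219 and 186 in the saline lanes. The lanes of each group were close to each other and far from the other group. Its log2 change was 1.76 ± 0.19 (SE, edgeR adjusted p = 3.56e-07). The gene next to it, at 25320943 to 25322455 on the same strand, is among the most abundant of the chromosome, and had 3131 and 3122 counts in alcohol against 3102 and 2983 in saline, a log2 change of 0.06 ± 0.14 that was not called.

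The gene ENSGALG00000015301, at 51602732 to 51651196 on the minus strand, had 153 and 166 counts in the alcohol lanes against 45 and 48 in the saline lanes, with a log2 change of 1.79 ± 0.23 (SE, edgeR adjusted p = 7.36e-06). The largest change of the 10 was 1.87 ± 0.24, for the gene at 16737588 to 16761324. It was counted 140 and 138 times after alcohol, against 43 and 34 times after saline. A gene of a single exon part at 24273768 to 24275537 had 29.81 and 28.05 CPM in alcohol and 10.24 and 11.46 CPM in saline, a log2 change of 1.41. The other rises of this group lay at 54917527, 81635768, 54574433, 40767154, 22593956 and 53671719, with log2 changes of 1.31 to 1.53. All 10 kept their call under each alternative fit. Over the whole chromosome, 76 of the 189 risen genes had a log2 change of at least 1.

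ZNF462, which encodes a protein of the zinc finger family, was the one Z gene with a name in the sources. It lies at 55489590 to 55547342 on the plus strand, and its entry joins 2 identifiers, so that its counts hold both. The study also lists a microRNA for this entry. It had 2674 and 2935 counts in the alcohol lanes, against 1822 and 1814 in the saline lanes. The groups did not overlap, and the log2 change was 0.64 ± 0.15 (SE, edgeR adjusted p = 0.00284). The rise was not shared by all of its exon parts. It lay mainly in part 3, which holds 52.3% of the gene's counts, with 1636 and 1759 in alcohol against 730 and 711 in saline. Parts 12 and 15 had fewer counts in alcohol than in saline.

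Of the 31 Z genes that fell, 13 lay side by side in an array. It runs on the plus strand at 7372096 to 7422658, inside the span of a minus-strand gene at 7358767 to 7475284. The array was singled out after its values had been seen, and no test over it was made. Its 13 genes are 552 to 763 bases long, 6 of them exactly 582, and 12 consist of 1 exon part. Their starts are 1809 to 7705 bases apart, with a median of 3978.5 bases. Genes of such like length may be near-identical copies, in which case reads could have been placed on either copy and the values of single genes are uncertain.

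Summed over the array, the counts were 448 and 651 in the alcohol lanes, against 1152 and 1201 in the saline lanes. Both alcohol lanes lay below both saline lanes in 13 of 13 genes, in CPM. All 13 were called lower from these same counts, so that this separation adds no support. The log2 changes ran from -1.56 to -0.73, with a median of -1.03. All 13 stayed negative with DESeq2, which called 4 of them, and without alcohol lane 1, where 9 were called. The gene ENSGALG00000045884 at 7387377 to 7388110, the fifth of the array, had 53 and 79 counts in alcohol and 163 and 146 in saline, with a log2 change of -1.22 ± 0.22 (SE, edgeR adjusted p = 0.000308). The surrounding gene had 1296 and 1352 counts in the alcohol lanes, against 1480 and 1391 in the saline lanes, a log2 change of -0.10 ± 0.15 that was not called (edgeR adjusted p = 0.697). Counting ignored strand, so that reads from introns of that gene and from the array cannot be told apart. The next tested gene beyond it, at 7511921 to 7540939, rose by 0.48.

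**Figure D4:**
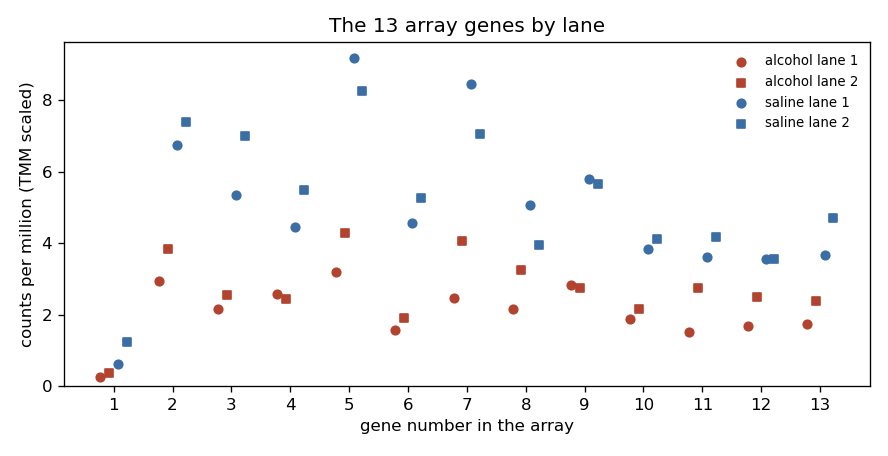
CPM (TMM scaled) of the 13 array genes in order along Z, with alcohol lanes in red and saline lanes in blue. In each of the 13 genes, all of them called lower, both alcohol lanes lie below both saline lanes.

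Outside the array, 18 Z genes fell. ENSGALG00000036774, at 1078261 to 1081587 on the plus strand, was the second most abundant Z gene per kilobase. It had 1844 and 2276 counts in the alcohol lanes and 3561 and 3371 in the saline lanes, with a log2 change of -0.74 ± 0.14 (SE, edgeR adjusted p = 0.000544). The gene at 81533753 to 81534593, the third by level, had 1722 and 1920 counts in alcohol against 2806 and 2730 in saline, a log2 change of -0.59 that was not called with library size scaling. Smaller counts lay behind the falls at 912007, 27322059 and 81581312, whose log2 changes of -0.63, -0.61 and -0.56 were not called by DESeq2 or with library size scaling. The call at 81581312 was also lost without saline lane 2.

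The rise was not even along the chromosome. In 17 windows of 5 Mb by gene start, the median log2 change lay above the autosomal median in 13. Most such windows on chromosomes 1 to 5 with at least 20 genes lay above it too. The median of their 117 window medians was 0.14, against an autosomal median of 0.04. On Z the window median was highest from 45 to 50 Mb, at 0.52 over 31 genes. There 14 rose (45.2%, against 25.3% of all tested Z genes and 15.5% of all tested genes) and 0 fell. This window was picked as the highest of 17, and the windows before and after it had medians of 0.12 and 0.26. The window median was 0.43 from 55 to 60 Mb and 0.35 from 15 to 20 Mb. The lowest value was -0.07, beyond 80 Mb, over 20 genes. In the window from 5 to 10 Mb, which holds the array, 16 genes rose and 18 fell and the median was -0.04, and without the array it was 0.05 with 5 falls.

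There was no steady rise or fall from one end of Z to the other, with a Spearman rho of 0.02 between start and log2 change across 748 genes that share their libraries. Such a correlation misses a change that is larger in the middle. In windows of 10 Mb the median was 0.04 up to 10 Mb, where the array lies, and 0.20 to 0.31 from 10 to 70 Mb. It was 0.08 from 70 to 80 Mb and -0.07 beyond. Windows of 5 Mb within the middle varied, with medians of 0.07 from 25 to 30 Mb and -0.02 from 60 to 65 Mb. The median was 0.12 both from 40 to 45 Mb and from 0 to 5 Mb. Windows of 5 Mb on chromosomes 1 to 5 with at least 20 genes had medians between -0.24 and 0.41 (117 windows). Of these, 12 exceeded 0.3, against 5 of 16 such windows on Z.

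**Figure D5:**
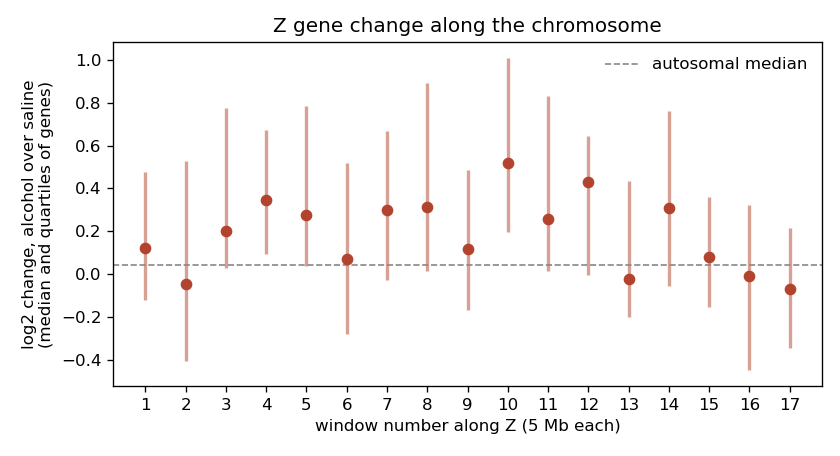
Log2 change of Z genes, alcohol over saline, in 17 windows of 5 Mb along the chromosome; points are medians, lines run between the quartiles and the dashed line is the autosomal median. Medians run from -0.07 in the last window to 0.52 in window 10.

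Exon usage, the share of a gene's counts that falls on 1 exon part, was the readout of the study. Of 3567 Z parts tested in 531 genes, 154 had higher and 14 had lower usage after alcohol (edgeR, false discovery rate 0.1). These are 4.32% and 0.392% of the Z parts. Among all parts tested, 4.36% were called higher and 0.511% lower, so that Z stood near the background. The calls on Z fell in 97 genes. The counts depend on single lanes, with 62 higher and 13 lower parts without saline lane 1, 59 and 8 without saline lane 2, 239 and 77 without alcohol lane 1, and 179 and 66 without alcohol lane 2.

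The position of a part in its gene went with its usage change on Z as on the autosomes. Parts were split into 5 stretches from the start to the end of the gene. In the second stretch the median log2 usage change of Z parts was 0.51 with 47 higher and 1 lower, and in the last stretch it was -0.02 with 8 higher and 7 lower. Autosomal parts had medians of 0.46 and -0.04 in these stretches. The share of parts called higher was 8.44% on Z and 7.36% on the autosomes in the second stretch, and 0.753% and 1.12% in the last.

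The 2 Z parts with the smallest p for higher usage belong to 1 gene, at 8540992 on the minus strand. In it 7 parts were called higher, while the gene total was called lower (log2 change -0.32, edgeR adjusted p = 0.0950). Part 15, at 8551242 to 8551373, had 16 and 32 counts in the alcohol lanes and 6 and 6 in the saline lanes, a log2 usage change of 2.32 (edgeR adjusted p = 0.00143). Part 12, at 8548349 to 8548484, had 34 and 34 counts in alcohol against 8 and 15 in saline, a log2 usage change of 1.89. Parts 15 and 12 held 0.341% and 0.518% of the gene's counts. In the same gene part 2 held 63.5% of the counts, with a usage change of -0.23 that was not called. All tested parts from 4 to 18 had positive usage changes, and parts 2 and 3 had negative ones. The part with the third smallest p, part 6 of the gene at 20211903, at 20217435 to 20217578, had 14 and 15 counts in alcohol against 1 and 3 in saline.

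ZNF462 held the smallest p for lower usage. Its last part, number 15 at 55547141 to 55547342, had 398 and 438 counts in the alcohol lanes against 546 and 528 in the saline lanes. This part fell while the gene total rose, with a log2 usage change of -0.99 ± 0.19 (SE, edgeR adjusted p = 0.000942). Part 3, at 55498149 to 55503634, is 5486 bases long and holds 52.3% of the gene's counts. It had 1636 and 1759 counts in alcohol against 730 and 711 in saline, a log2 usage change of 0.61 that was called higher. The rise of the gene total lay mainly in this part. Parts 2 and 6 also had positive log2 usage changes, 0.46 and 0.68, that were not called. Those of parts 9 to 15 were all negative, from -0.14 to -0.99. Medians of autosomal parts also fell from the first stretch of the gene to the last, from 0.42 to -0.04. Part 12, at 55538308 to 55538531, was also called lower, with 172 and 193 counts in alcohol against 214 and 203 in saline and a log2 usage change of -0.82. The parts with the next smallest p for lower usage were a part of 1 base at 40077218, with 0 and 2 counts in alcohol against 10 and 16 in saline, and a part at 80971372 to 80971412, with 8 and 7 in alcohol against 31 and 24 in saline.

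Pathway groups are attached by the deposited exon list to 68 of the tested Z genes. That list was chosen by the authors for exon usage in these same samples, and it is not independent evidence of a direction. Of the 68 genes, 14 rose (20.6%) and 1 fell, a share of risen genes below that of all tested Z genes (25.3%). Among the 1117 autosomal genes of the list, 11.8% rose and 16.7% fell. The median log2 change was 0.04 on Z and -0.07 on the autosomes. The study built the group TCA/OxPhos from pathways such as fatty acid, propanoate and vitamin cofactor metabolism. In it 5 of 14 Z genes rose (35.7%, against 25.3% of all tested Z genes) and none fell. Among autosomal genes of the group 8.38% were higher and 20.9% lower. Its Z median was 0.25 and its autosomal median -0.14, the widest gap of the groups summarized. In the group mTOR-autophagy-N metabolism, which covers growth control and nitrogen use, 1 of 22 Z genes rose and none fell, against 6.998% higher and 21.7% lower among autosomal genes, with medians of 0.03 on Z and -0.15 on the autosomes. For cell-cell interactions the Z median of 0.10 (n = 15) was close to the autosomal median of 0.13. In this group 3 Z genes rose and none fell, against 23.2% higher and 7.73% lower among autosomal genes. In the group Stress response 3 of 14 Z genes rose and 1 fell, against 13.4% higher and 9.66% lower among autosomal genes. No Z gene rose or fell in the groups labelled RBG (n = 11), 1-Carbon Metabolism (n = 6) and FoxO (n = 6). Autosomal genes of RBG had 6.69% higher and 28.03% lower. The shares were 4.23% and 23.9% for 1-Carbon Metabolism, and 13.9% and 9.93% for FoxO. Among all tested Z genes 4.14% were called lower. These groups hold few Z genes, and a difference from the autosomal shares was not tested.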

How the data were processed

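Poly-A selected RNA from pooled headfolds was sequenced as paired reads of 75 bp. For each exon part the authors deposited a raw count of read pairs. They had trimmed the reads, aligned them to Galgal5 with Bowtie2, and run featureCounts 1.5.2 (Subread) in its unstranded mode, requiring both mates of a pair. A second deposited table gave pathway groups. Its 4 columns of normalized counts per sample, its usage coefficients and its fold changes were not used. A gene reference for a later assembly held 0 of the identifiers.

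Exon parts were summed per gene. Autosomes were chromosomes 1 to 28 and 30 to 33. Lanes were summed where the chi-square over degrees of freedom was under 1.1. Genes with at least 10 counts entered the quasi-likelihood test of edgeR 4.0.16 (R 4.3.3) after TMM scaling, and usage was tested with diffSpliceDGE, over the whole table at a false discovery rate of 0.1. Each SE was derived from the edgeR test, as the absolute log2 change over the square root of its F statistic. DESeq2 1.42.0 was an alternative. The spread rests on the 2 alcohol lanes. Scripts were tested on simulated data. Summaries used Python 3.11.15, pandas 2.3.3 and scipy 1.17.1.

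Genes were named where the sources gave a symbol, where they were among the 10 largest rises or falls with a mean of at least 100 counts, or the 10 highest per kilobase in saline, and the 3 parts with the smallest usage p in each direction. The members and lists were chosen with earlier results of these data known.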

Additional observations from a re-analysis of the deposited data

How the results depend on the processing

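All 189 risen Z genes that could be tested kept a positive change under the 12 alternative fits. They were picked as called higher from these same counts, with a smallest log2 change of 0.37, so that the kept sign adds no support. DESeq2 still called 63 of the 189. Treating every lane as a library gave 254 higher and 71 lower Z genes, library size scaling 398 and 12, and DESeq2 63 and 6. Leaving out a lane gave 159 to 246 higher and 24 to 81 lower, and without the array 18 fell. The Z minus autosomal median ranged from 0.12 to 0.17 without single lanes, and was 0.0875 against chromosomes 1 to 5. Fits without an alcohol lane treat the saline lanes as replicates. The comparison with chromosomes 1 to 5, the single alcohol lanes and the omission of the array were chosen after seeing the data.

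The level ratio in alcohol lane 1, alcohol lane 2 and saline was 0.480, 0.471 and 0.385 with a minimum of 1 count, 0.703, 0.688 and 0.655 with 50 counts, 0.600, 0.592 and 0.530 without combined identifiers, 0.648, 0.622 and 0.582 for means, and 0.660, 0.678 and 0.615 against chromosomes 1 to 5. It was 0.525 and 0.544 in the saline lanes singly. Without single lanes it was 0.613 to 0.621 in alcohol lane 1, 0.610 to 0.618 in alcohol lane 2 and 0.561 to 0.571 in saline.

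Z parts with higher usage numbered 282 with every lane as a library and 75 with a minimum of 1 count, and 59 to 239 without single lanes. Parts with lower usage numbered 45 with every lane as a library, and 8 to 77 without single lanes.

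Scaling by library size turned the log2 changes at 63359022 (0.0095), 33736457 (0.18), 70731207 (0.24), 44899734 (0.18), 24736670 (0.21) and 2151465 (0.27) positive, and leaving out alcohol lane 1 turned that at 25320943 negative (-0.034, and 0.136 without alcohol lane 2). The causes were not tested. No paired analysis was possible because the groups do not share 2 replicate numbers that mark a common source. The labels do not say whether lanes are separate pools, so that no error over embryos is given.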
